A study of Mus musculus with 3 samples.

Results

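The genes of fibroblast growth factor (FGF) signalling were followed in the chromatin of limb mesenchymal progenitors (MPs). The set held 36 genes, which comprised 22 ligands (Fgf1 to Fgf18 and Fgf20 to Fgf23), 5 receptors (Fgfr1 to Fgfr4 and Fgfrl1) and 9 feedback or target genes (Spry1, Spry2, Spry4, Spred1, Spred2, Spred3, Dusp6, Etv4 and Etv5). Genes were chosen by name, and all 36 had a value in every library. The ligands Fgf13 and Fgf16 lie on the X chromosome and were kept out of counts and medians, so that 34 members were read against 15722 autosomal protein-coding genes.

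Most FGF ligands are secreted proteins that bind receptor tyrosine kinases together with heparan sulphate or a Klotho co-receptor, and the bound receptors signal through the Ras and MAP kinase pathway. The ETS factors Etv4 and Etv5 are transcribed in response, and so are the Sprouty and Spred proteins and the phosphatase Dusp6, which damp the pathway. In the limb bud, Fgf10 from the mesenchyme and Fgf4, Fgf8, Fgf9 and Fgf17 from the apical ectodermal ridge maintain outgrowth. Fgf18 acts in skeletal growth, and Fgfr1, Fgfr2 and Fgfr3 are used at different steps of cartilage formation and maturation.

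Nuclei came from sorted tdTomato+ cells of Hic1CreERT2/CreERT2;Rosa26LSLtdTomato/tdTomato embryos on a C57BL/6J background, whose dams had received 7.5 mg tamoxifen by gavage at embryonic day 10. The Cre is driven by Hic1, so only cells with Hic1 activity around the time of tamoxifen, and their progeny, were followed. There were 3 libraries of single-nucleus ATAC-seq, which counts transposase insertions in open chromatin, and 1 library was made at each of embryonic days (E) 12.5, 14.5 and 16.5. Whole forelimbs were used for the first 2 stages, and the segment around the elbow for E16.5. Limbs were digested with Dispase at E12.5 but with Collagenase A, Pronase and DNase at E14.5 and E16.5, and cells positive for CD31, Ter119, CD45, CD11b, F4/80 or CD117 were excluded in the sort. Without replicate libraries no test between stages was possible, and stage cannot be told apart from library, limb segment or digestion. Every interval given for a locus, element or summed list is a 95% interval of counting error alone. For a group median, the interval runs from the median of its members' lower bounds to the median of their upper bounds. It is not a 95% interval of the median.

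From the earliest to the latest stage the libraries held 8294, 20023 and 14048 nuclei, each with 6003.5, 8575 and 26694 counts in the median nucleus. Between 151 and 401 cell barcodes were found in both libraries of a pair, and 6 were found in all 3. The lineage tracer Hic1 had 150, 144 and 130 counts per 1000000 (CPM) over its locus, and all 5 general mesenchyme loci (Prrx1, Twist1, Pdgfra, Col1a1, Col1a2) had peaks in every library. Loci of other cell types were not closed: the summed CPM ranged over the libraries from 81.1 to 197 for 6 epithelial loci, from 52.8 to 132 for 5 myogenic loci, from 117 to 193 for 6 endothelial loci and from 42.6 to 113 for 6 blood loci, of which Tyrobp and Gata1 had no peak. Krt5, Emcn and Csf1r had none at E14.5. Their part in the results was not tested. The E14.5 library stood apart in how its counts were spread: regions called in every library took 86.5%, 97.7% and 81.8% of the counts in order of stage, and promoter peaks 43.0%, 54.9% and 40.8%. Over 12417 matched promoter elements the median log2 ratio was 0.26 from E12.5 to E14.5 and -0.30 from E14.5 to E16.5. The part of this spread in levels that stood highest or lowest at E14.5 was not tested.

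A locus was the gene body with the 2000 bp upstream, and its level was the sum of counts in peaks that overlapped it and lay in regions called in all 3 libraries, as CPM of the total in autosomal regions of this kind. FGF loci were measured with 258 fragments (Fgf4) or more at E12.5, 750 or more at E14.5 and 756 or more at E16.5. Between E12.5 and E16.5, ligand loci lost accessibility more often than they gained it, receptor loci had a median of -0.17, and feedback loci had a median near 0. A change of 1.5-fold or more was counted as a call, which is a rule of size and not a test. From E12.5 to E16.5, 1 of 34 members was 1.5-fold or more higher and 7 were 1.5-fold or more lower, beside 7.23% and 8.61% of all genes. When only peaks outside promoters were used, scaled to such peaks, 3 members of 20 with a value were higher and 3 were lower, beside 21.2% and 20.8% of genes on that scale. Per kb of called peak 0 of 34 were higher and 5 were lower (Fgf3, Fgf6, Fgf14, Fgf23 and Etv4), beside 1.57% and 11.8% of genes. In promoter peaks, scaled to such peaks, 0 of 33 were higher and 5 were lower, beside 5.95% and 8.04%. At 2-fold in place of 1.5-fold, 0 of 34 were higher and 3 were lower, beside 2.81% and 3.06% of genes.

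**Figure D1:**
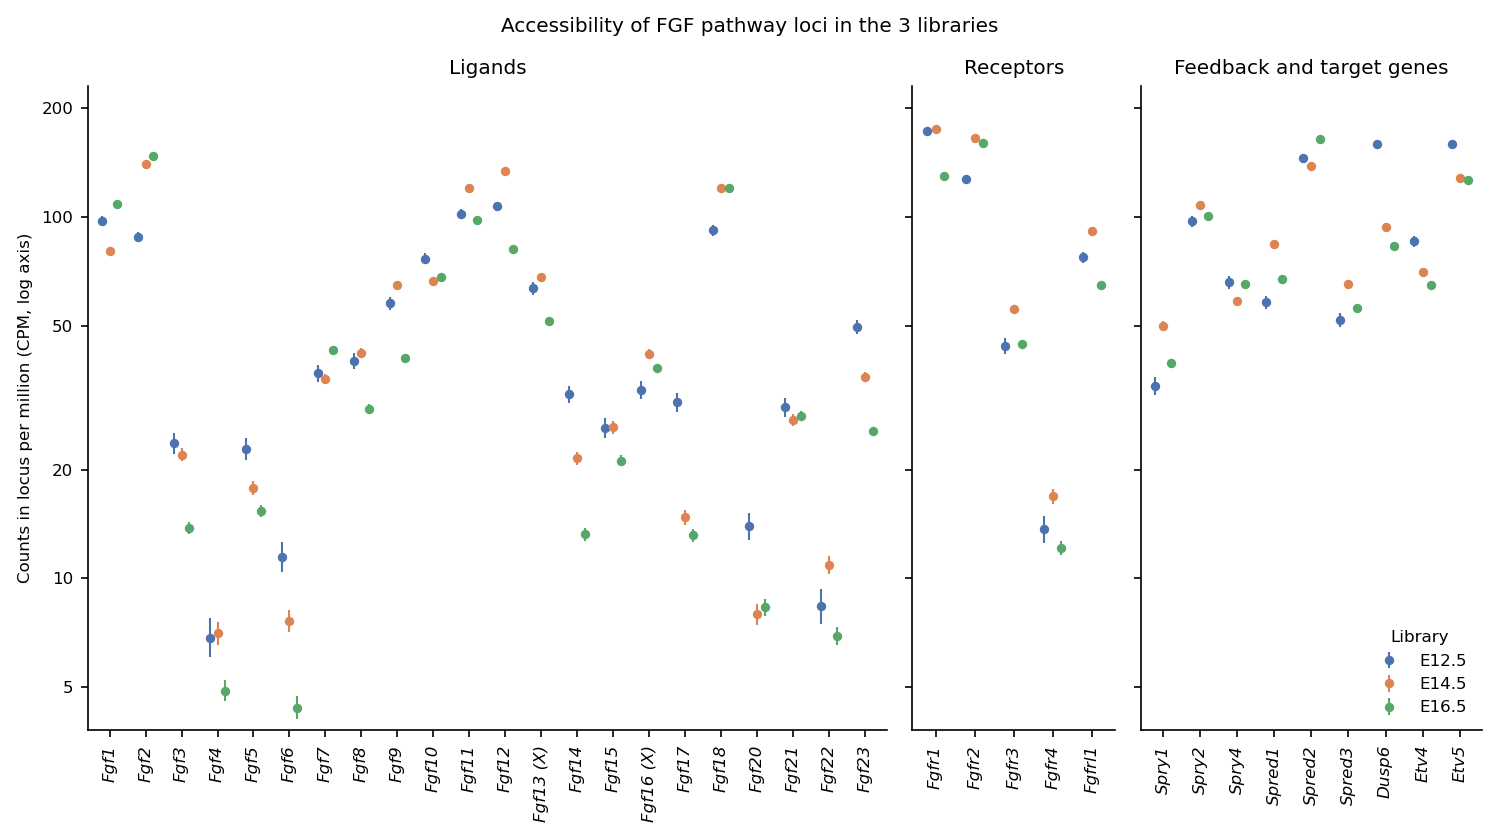
Accessibility of each FGF locus (CPM, log axis) by stage, with 1 point per library and bars for the 95% counting interval. Receptor loci stood highest at E14.5 except Fgfr1, where E12.5 and E14.5 lay together, and Fgf6 had the lowest level of any ligand at E16.5 (4.39 CPM).

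Ligand loci had a median log2 ratio of -0.41 (interval -0.49 to -0.31) from E12.5 to E16.5, against 0.01 over all genes. Of the 20 autosomal ligands, 16 were lower and 4 were higher at E16.5, and the intervals of 15 lay below 0, as they did for 39.7% of all genes. From E12.5 to E14.5 the ligand median was -0.08, with 1 ligand 1.5-fold or more higher (7.36% of all genes) and 3 lower (7.45%), although the median of all genes rose by 0.15. From E14.5 to E16.5 the ligand median was -0.30 and that of all genes was -0.18, with 0 ligands 1.5-fold or more higher (7.17% of all genes) and 6 lower (5.36%).

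Among ligands made by limb mesenchyme, Fgf2, Fgf18 and Fgf7 had higher sums at E16.5 than at E12.5, Fgf9 had a lower one, and so did Fgf10, though not when every called peak was used. Fgf2, a broadly acting mitogen, had 88.0, 140 and 147 CPM in order of stage, the largest rise of any ligand (log2 ratio 0.74, interval 0.69 to 0.80). Its called peaks widened from 9.47 kb to 16.5 kb over the same interval. In the elements that could be matched between libraries its log2 ratio was 0.02, and per kb of called peak it was -0.05, beside a median of -0.19 over all genes. The matched elements differed. The promoter (0.39, 0.27 to 0.51) and an intron element at 5640 bp (0.39, 0.24 to 0.55) rose, and an intron element at 34690 bp fell (-0.67, -0.78 to -0.56). From E12.5 to E16.5 their called widths went from 2123 to 2367 bp, from 1267 to 2220 bp and from 1261 to 1265 bp. The part of peak width in the higher sum was not tested.

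Fgf18, which regulates chondrocyte and osteoblast growth, had 91.7, 120 and 120 CPM (0.39, 0.34 to 0.44). Fgf7, a mesenchymal ligand for the epithelial form of Fgfr2, had 36.9, 35.6 and 42.9 CPM (0.21, 0.13 to 0.30). These 2 loci stood above their E12.5 level at E16.5 by more than counting error. Per kb of called peak the same ratios were -0.17 and -0.29, beside a median of -0.19 over all genes. Their peaks were also wider at E16.5.

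Fgf10, the mesenchymal ligand that sustains the ridge, had 76.6, 66.3 and 68.0 CPM (-0.17, -0.23 to -0.11). With every peak of each library's own list it had 82.3, 66.3 and 81.7 CPM (-0.01, -0.07 to 0.05), and in matched elements the ratio was -0.03, but per kb of called peak it was -0.56, beside a median of -0.19 over all genes, so the size of its fall depended on the scale. Its promoter element held most of this signal and was nearly level, with 45.0, 41.6 and 41.9 CPM. Fgf9, a ligand of limb ectoderm and mesenchyme, had 57.7, 64.9 and 40.7 CPM (-0.50, -0.57 to -0.43), and was highest at E14.5. Peaks at its own promoter held 100%, 55.1% and 100% of these counts, and in promoter peaks alone the second step had the opposite sign.

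The largest fall among ligands was at Fgf6, a ligand known from skeletal muscle. It had 11.5, 7.64 and 4.39 CPM, a log2 ratio of -1.39 (-1.56 to -1.21), and all of it came from a single intronic element. Over every called peak the 5 myogenic loci summed to 132, 52.8 and 79.2 CPM in the same libraries. In regions called in all 3 libraries, 0 of the 5 were higher at E16.5 than at E12.5, and the intervals of 3 lay below 0. Their median log2 ratio was -0.57 and the lowest was -3.06. Single loci differed, with 15.6, 5.12 and 6.21 CPM at Myod1 but 4.39, 4.51 and 4.30 at Myog and 36.6, 29.5 and 36.6 at Pax7. The part of myogenic cells in the Fgf6 values was not tested. The other 5 ligand loci past 1.5-fold were Fgf14 (-1.28), Fgf17 (-1.22), Fgf23 (-0.96), Fgf3 (-0.78) and Fgf20 (-0.75), named here because they passed that size. Called peaks narrowed from 7.17 kb to 4.47 kb at Fgf17 and from 2.95 kb to 2.32 kb at Fgf20, and per kb their ratios were -0.54 and -0.41, short of 1.5-fold. Fgf20 also fell short of it in a binarised matrix (-0.56) and with GENCODE gene models (-0.14). They do not form 1 functional family, since Fgf14 encodes an intracellular protein that binds sodium channels, Fgf23 a phosphate hormone and Fgf3 and Fgf20 secreted paracrine factors.

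Neighbouring genes limit the reading of 3 ligands. Between 59.9% and 90% of the Fgf17 counts lay in peaks that reached the Dmtn promoter, and all Fgf21 counts lay in a peak shared with the Fut1 promoter. At Fgf11 peaks that reached the promoter of another gene held 32.7%, 24.9% and 100% of the counts in order of stage. The ridge ligands Fgf4 and Fgf8 had peaks in every library, with 6.86, 7.05 and 4.89 CPM at Fgf4 and 39.8, 42.0 and 29.5 CPM at Fgf8. Both were lower at E16.5 than at E14.5, and their first step was within counting error. Over every called peak the 6 epithelial loci summed to 197, 81.1 and 189 CPM. In regions called in all 3 libraries their members differed, with 17.4, 21.7 and 13.4 CPM at Epcam, 5.80, 3.48 and 2.41 at Krt14 and 35.7, 2.98 and 41.3 at Sfn. The part of epithelial cells in the ligand values was not tested. The remaining autosomal ligands Fgf1, Fgf5, Fgf12, Fgf15 and Fgf22 had log2 ratios between -0.57 and 0.16. The X-linked ligands went in opposite directions, with 63.4, 68.0 and 51.4 CPM at Fgf13 and 33.2, 41.7 and 38.3 CPM at Fgf16.

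Fgfr2, Fgfr3, Fgfr4 and Fgfrl1 were higher at E14.5 than at E12.5, the first step at Fgfr1 was within counting error (0.02, -0.02 to 0.06), and all 5 receptor loci were lower at E16.5 than at E14.5. The intervals of 63.9% of all genes lay below 0 for the second step, and 44.5% of genes stood highest at E14.5 beyond counting error on both steps, as 4 of 5 receptors did. With every peak of each library's own list, Fgfr1 was lower at E14.5 than at E12.5 (-0.07, -0.11 to -0.03) and Fgfr2 was higher at E16.5 than at E14.5 (0.12, 0.10 to 0.15), so 3 of 5 receptors stood highest at E14.5, beside 34.5% of genes. The receptor median log2 ratio was 0.30 for the first step and -0.43 for the second, beside 0.15 and -0.18 over all genes and 0.26 and -0.30 over promoter elements, and no receptor passed 1.5-fold in any pair of stages. Between E12.5 and E16.5 the median was -0.17 (-0.31 to -0.03), with 2 receptors higher and 3 lower. This last value changed sign with the handling of the data, to 0.07 with peaks outside promoters only and to 0.03 without the deepest nuclei.

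Fgfr1, the receptor of early limb mesenchyme, had 173, 175 and 130 CPM (-0.42 from E12.5 to E16.5, -0.46 to -0.38). Fgfr2, whose mesenchymal form marks condensing cartilage, had 127, 165 and 160 CPM (0.33, 0.29 to 0.38). These loci crossed, Fgfr1 having the larger sum at E12.5 and Fgfr2 at E16.5. Per kb of called peak, the scale on which loci of unlike size can be compared, Fgfr1 stayed above Fgfr2, at 13.9 against 6.61 CPM per kb at E12.5 and 9.76 against 7.24 at E16.5.

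Fgfr3, the receptor that restrains growth plate chondrocytes, had 44.0, 55.6 and 44.6 CPM, and its E12.5 and E16.5 levels did not differ beyond counting error (0.02, -0.06 to 0.10). Fgfr4, known from liver and muscle, had 13.7, 16.9 and 12.1 CPM (-0.17, -0.31 to -0.03). Fgfrl1, a receptor without a kinase domain, had 77.2, 91.4 and 64.9 CPM (-0.25, -0.31 to -0.19). The number of open regions also differed: 29 regions were called over Fgfr2 in at least 1 library and 19 over Fgfr1, but 3 over Fgfr3, 3 over Fgfrl1 and 1 over Fgfr4. Fgfr2 and Fgfr1 are 104358 and 56960 bp long, and Fgfr3, Fgfrl1 and Fgfr4 15345, 12722 and 15942 bp. At Fgfr2 and Fgfr1, 8 regions each were called only at E16.5, the library with the most counts per nucleus.

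Feedback and target loci had a median log2 ratio of 0.05 (interval -0.001 to 0.10) from E12.5 to E16.5, with 5 higher and 4 lower. Dusp6, the MAP kinase phosphatase, was the member of this group whose sum passed 1.5-fold, with 159, 93.9 and 83.3 CPM (-0.93, -0.98 to -0.89). Its call rested on a second peak just past the end of the gene, which overlapped the gene at E12.5 only, so that the called width went from 9.95 kb to 4.94 kb and 6.14 kb. The promoter element, which every library shared, went from 111 to 93.9 and 83.3 CPM (-0.41, -0.46 to -0.36), and with this value 6 members in place of 7 would be 1.5-fold or more lower.

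The ETS factors were also lower at E16.5 than at E12.5. Etv5 had 159, 128 and 127 CPM (-0.33, -0.37 to -0.29) and Etv4 had 85.7, 70.1 and 64.9 CPM (-0.40, -0.46 to -0.34). At Etv5 the promoter element fell from 115 to 96.8 and 78.2 CPM (-0.56, -0.61 to -0.51), and at Etv4 from 56.4 to 46.7 and 44.9 CPM (-0.33, -0.40 to -0.26). Summed over the locus, Dusp6, Etv4 and Etv5 were lower at E14.5 than at E12.5, whereas the median of all genes was higher. Per kb of called peak all 3 were higher at E14.5, from 16 to 19 CPM per kb at Dusp6, from 19.3 to 20.3 at Etv4 and from 17.7 to 19.8 at Etv5, with log2 ratios of 0.25, 0.07 and 0.16 beside a median of 0.50 over all genes on that scale.

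Among the Sprouty and Spred inhibitors, Spry1, Spred1, Spred2 and Spred3 had higher sums at E16.5 than at E12.5. Spry1 had 34.1, 50 and 39.5 CPM (0.21, 0.13 to 0.30), Spry2 had 97.1, 108 and 101 CPM (0.05), and Spry4 had 65.9, 58.4 and 65.1 CPM (-0.02, -0.08 to 0.05). Spred1 had 58.0, 83.9 and 67.5 CPM (0.22, 0.15 to 0.28) and Spred2 had 145, 138 and 164 CPM (0.18, 0.13 to 0.22). Spred3 had 51.8, 65.2 and 56.1 CPM (0.12, 0.04 to 0.19), but 93.4% to 94.7% of its counts lay in a peak shared with the Ggn promoter. The sums of Spry1, Spry2, Spred1 and Spred3 were highest at E14.5, as those of 44.5% of genes were. Per kb of called peak, the log2 ratio from E12.5 to E16.5 was -0.41 at Spry1 and -0.36 at Spry2, but 0.25 at Spry4, 0.15 at Spred1, 0.10 at Spred2 and 0.15 at Spred3. On this scale Etv4 had -0.65, Dusp6 -0.24 and Etv5 -0.38, beside a median of -0.19 over all genes, so the order of these genes depended on the scale. Per kb of called peak Dusp6 and Etv5 were the most open members at E16.5, at 13.6 CPM per kb each, followed by Spred1 at 13.1 and Etv4 at 12.3, and Fgf6 was the least open at 2.70.

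**Figure D2:**
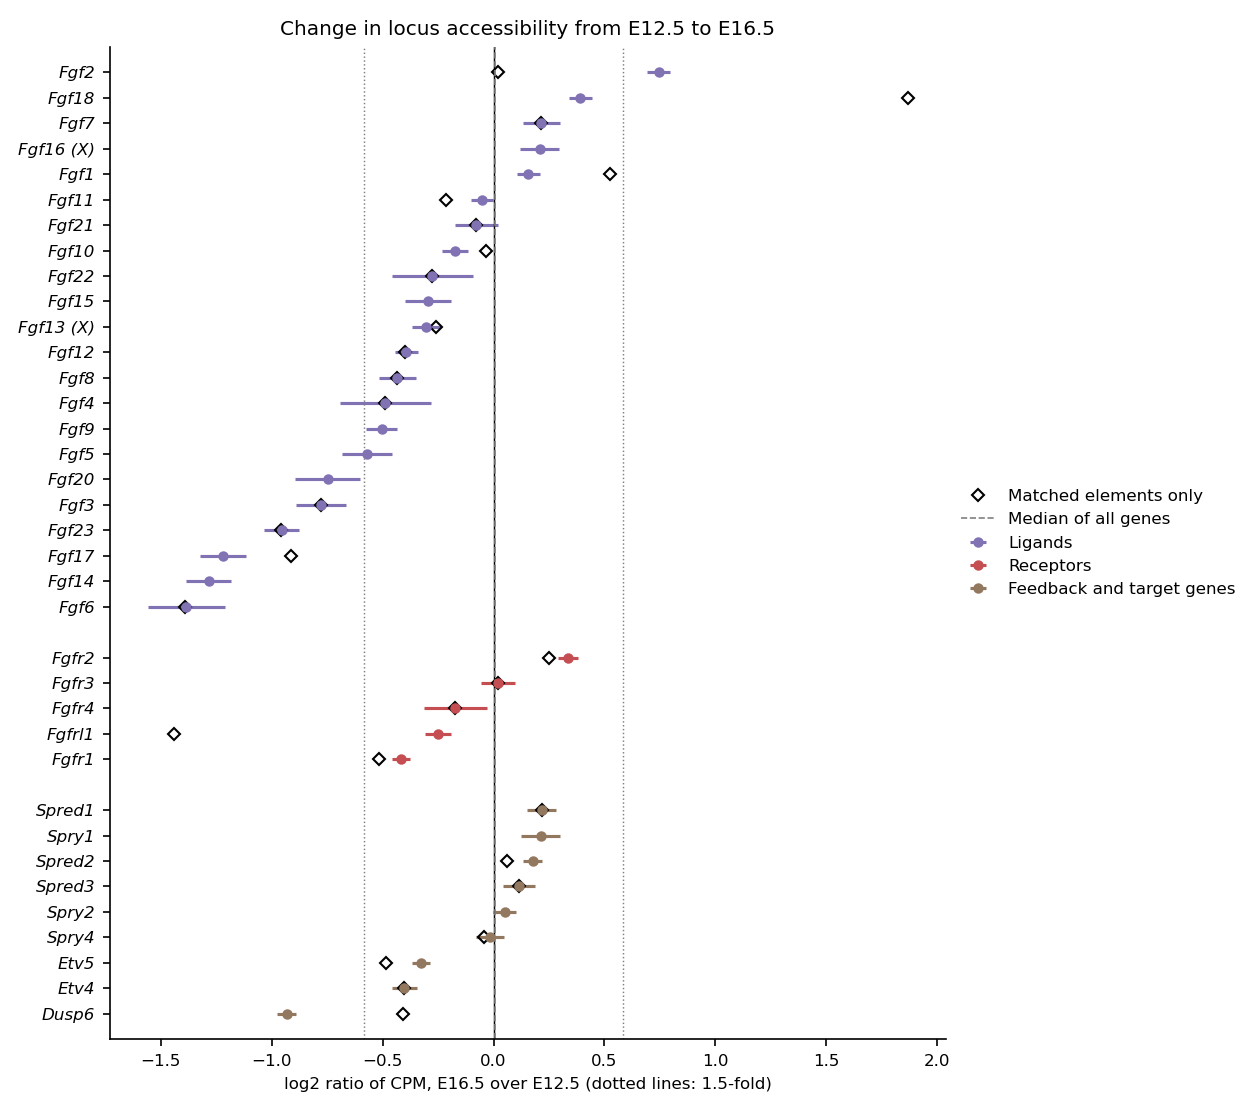
log2 ratio of CPM at E16.5 over E12.5 for each FGF locus, with bars for the 95% counting interval, open diamonds for elements matched between libraries and dotted lines at 1.5-fold. Ligands run from Fgf2 (0.74) to Fgf6 (-1.39), and the diamonds of Fgf2 (0.02), Fgf18 (1.87), Fgfrl1 (-1.44) and Dusp6 (-0.41) stand away from the locus values. At Fgf18 and Fgfrl1 the diamond is a single intron element, with 15.8 of 120 CPM and 3.40 of 64.9 CPM of the locus at E16.5.

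Other genes of the pathway were read in the same way. Of 40 listed genes 38 were autosomal with a value in every library, and their median log2 ratio from E12.5 to E16.5 was 0.09, with 5 genes 1.5-fold or more higher (7.23% of all genes) and 1 lower (8.61%). Kl, the co-receptor for Fgf23, rose from 22.6 to 39.9 and 53.3 CPM (1.24, 1.14 to 1.34), and the secreted binding protein Fgfbp3 from 46.7 to 74.8 and 80 CPM (0.78, 0.70 to 0.85). The other 3 higher loci were Sos1 (0.88) and Plcg1 (0.63), which relay the receptor signal, and the kinase gene Mapk3 (0.97). Called peaks widened from 2.04 kb to 6.44 kb at Fgfbp3 and from 4.81 kb to 10.2 kb at Plcg1, and per kb these loci were lower at E16.5 than at E12.5 (-0.88 and -0.46), whereas Kl (0.97), Mapk3 (0.51) and Sos1 (0.19) were higher. Flrt3, a membrane protein that binds FGF receptors, fell from 86.3 to 65.2 and 51.8 CPM (-0.73). Among 8 further inhibitors and targets 0 passed 1.5-fold, and the ETS gene Etv1 was the lowest at -0.54.

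Single elements were read in the same loci. An element was matched when exactly 1 peak of each library covered it with at least 50% reciprocal overlap, and 62 such elements lay in autosomal FGF loci. From E12.5 to E16.5, 5 of them were 1.5-fold or more higher and 15 were lower, shares of 8.06% and 24.2% beside 16.1% and 23.1% of 43779 matched elements genome-wide. The share of higher elements was thus below the genome-wide share, and that of lower elements was near it. At 80% reciprocal overlap, 1 of 20 elements was higher and 6 were lower, beside 5.27% and 16.6% of 10367 elements. Of 21 promoter elements of FGF genes, 0 were higher and 4 were lower, beside 4.53% and 10.6% of 12417 promoter elements.

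The ligand element that rose most lay in an intron of Fgf1, 11398 bp from the start site of its curated RefSeq transcript, which begins inside the gene body used here. It rose from 10.0 to 22.8 and 37.5 CPM (log2 ratio 1.90, 1.75 to 2.06). An Fgf18 intron element 20672 bp from the start site went the same way, from 4.32 to 9.08 and 15.8 CPM (1.87, 1.65 to 2.11), while the whole Fgf18 locus rose by 0.39. In Fgf7 an intron element at 30832 bp rose from 7.62 to 12.1 and 15.9 CPM (1.06, 0.88 to 1.24). The Fgf18 and Fgf7 elements were picked after their values were seen. In every one of these 3 elements the summed levels, not scaled to called width, increased at each step. The called width was 2139, 1989 and 2295 bp in Fgf1, 1295, 1632 and 1897 bp in Fgf18 and 1151, 1060 and 1732 bp in Fgf7.

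Not scaled to called width, the 2 lowest ratios were those of elements in Fgfrl1 and Fgfr1, within counting error of the Fgf6 element (-1.39, -1.56 to -1.21). Receptor elements as a group did not fall most. Of 11 receptor elements 2 were 1.5-fold or more lower (18.2%), as were 11 of 36 ligand elements (30.6%) and 2 of 15 feedback elements (13.3%), beside 23.1% genome-wide. Their medians were 0.02, -0.34 and -0.24. The Fgfrl1 intron element 6274 bp from the start site fell from 9.24 to 4.98 and 3.40 CPM (-1.44, -1.63 to -1.25). Its called width was 1221, 641 and 861 bp in order of stage, and the part of width in this fall was not tested. In Fgfr1, an element at 25417 bp fell from 50.4 to 35.7 and 18.7 CPM (-1.43, -1.51 to -1.35), beside one at 18070 bp with 47.1, 61.7 and 49.4 CPM (0.07, -0.01 to 0.14). These neighbours were about equally open at E12.5 and far apart at E16.5, and they too were picked after their values were seen. The largest rise of a receptor element was in Fgfr2 at 65782 bp, over an exon, from 2.20 to 2.84 and 4.73 CPM (1.1, 0.78 to 1.44). Its called width was 840, 706 and 1274 bp. Among feedback genes the largest rise was at the Spred1 promoter, from 50.4 to 79.3 and 61.8 CPM (0.29, 0.22 to 0.37), and the largest fall in a Spred2 intron at 17449 bp, from 11.0 to 5.80 and 6.18 CPM (-0.83, -1.0 to -0.66).

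The central 300 bp of 4 intronic elements described above are printed so that the open sequence can be read beside its values, from the GRCm38 reference (mm10) on the strand of the gene. Capitals mark matches to searched motifs. The first is the only open element of Fgf6, chr6:127020082-127020381 (+), intronic, with a RUNX motif.
Fgf6 intron element: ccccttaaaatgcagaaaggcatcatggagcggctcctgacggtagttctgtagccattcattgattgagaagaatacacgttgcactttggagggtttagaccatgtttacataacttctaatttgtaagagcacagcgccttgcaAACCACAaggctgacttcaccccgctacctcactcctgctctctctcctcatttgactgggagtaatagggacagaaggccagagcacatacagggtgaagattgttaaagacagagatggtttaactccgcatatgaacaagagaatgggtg
The second is the Fgfrl1 element, chr5:108700353-108700652 (+), intronic, with no searched motif.
Fgfrl1 intron element: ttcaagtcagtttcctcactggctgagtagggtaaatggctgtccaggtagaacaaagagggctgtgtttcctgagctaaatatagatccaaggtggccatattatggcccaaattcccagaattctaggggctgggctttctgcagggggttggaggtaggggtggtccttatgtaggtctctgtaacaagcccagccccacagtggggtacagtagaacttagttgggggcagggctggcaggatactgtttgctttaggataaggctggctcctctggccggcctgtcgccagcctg
The third is the Spred2 element, chr11:19941741-19942040 (+), intronic, with an AP-1 motif and 2 E-boxes.
Spred2 intron element: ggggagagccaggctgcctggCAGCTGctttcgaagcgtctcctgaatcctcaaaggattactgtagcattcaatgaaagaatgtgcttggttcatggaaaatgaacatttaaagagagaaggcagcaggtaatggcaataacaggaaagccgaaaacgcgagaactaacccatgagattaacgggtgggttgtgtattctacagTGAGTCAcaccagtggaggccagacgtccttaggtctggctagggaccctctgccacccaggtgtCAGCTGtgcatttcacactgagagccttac
The fourth is the rising Fgf18 element, chr11:33126578-33126877 (-), intronic, with no searched motif.
Fgf18 intron element: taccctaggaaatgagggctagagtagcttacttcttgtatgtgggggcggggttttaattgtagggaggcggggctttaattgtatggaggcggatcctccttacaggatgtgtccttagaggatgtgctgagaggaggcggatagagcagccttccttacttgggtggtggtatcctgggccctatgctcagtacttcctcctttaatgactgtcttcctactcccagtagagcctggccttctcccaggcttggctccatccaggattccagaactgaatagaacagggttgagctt

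Motifs were searched on both strands as the letters CCGGAA (ETS), TGANTCA (AP-1), AACCACA (RUNX), ACAATG (SOX), CAGCTG (E-box) and ATCAAAG (TCF/LEF). RefSeq promoter windows of 300 bp (GRCm38.p6) were matched for 27 of the 36 FGF genes. An ETS core lay in 4 of them (Fgf5, Fgfr4, Fgfrl1 and Spry2), beside 15.2% of 27025 promoters, and an E-box in 7, beside 16.1%. The AP-1 and RUNX letters lay in 0 of the 27, beside 7.93% and 5.37%. In 38 FGF elements outside promoters, an E-box lay in 12 (23.4% of 31362 such elements), a SOX motif in 5 (13.6%), RUNX and TCF/LEF motifs in 4 each (7.90% and 4.35%), AP-1 in 3 (11.3%) and ETS in 1 (4.97%). For Etv5, whose promoter fell, and Fgfr4, whose only open region is its promoter, the 250 bp before the start site follow from the RefSeq promoter table, with the E-box and the ETS core in capitals. They lie at chr16:22439571-22439820 (-) and chr13:55152568-55152817 (+).
Etv5 promoter: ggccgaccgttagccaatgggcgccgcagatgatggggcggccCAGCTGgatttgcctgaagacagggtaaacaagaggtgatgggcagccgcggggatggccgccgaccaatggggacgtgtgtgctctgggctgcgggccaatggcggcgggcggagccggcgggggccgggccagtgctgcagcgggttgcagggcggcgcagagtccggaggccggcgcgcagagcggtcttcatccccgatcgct
Fgfr4 promoter: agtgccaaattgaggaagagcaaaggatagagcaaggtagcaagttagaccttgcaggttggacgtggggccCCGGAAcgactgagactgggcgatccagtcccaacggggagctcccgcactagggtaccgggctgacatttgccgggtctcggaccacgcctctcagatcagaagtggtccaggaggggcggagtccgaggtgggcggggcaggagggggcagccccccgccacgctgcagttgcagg

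To ask where FGF loci were open within a library, nuclei were gated on lineage loci. A nucleus entered a gate when it had at least 5 fragments over the gate loci and at least 2 times the number that its own depth predicted. A gate is a range of a score and not a cell type. The chondrogenic gate used 10 cartilage loci, among them Col2a1, Acan and Matn1, and held 221, 871 and 1212 nuclei (2.66%, 4.35% and 8.63%) in order of stage. It was read against Sox9, Sox5, Sox6, Matn3 and Col9a2, which were not used in it and whose summed level was higher inside by log2 ratios of 0.20, 0.67 and 1.21. Between 87 and 281 nuclei per library lay within 10% of the limit, and nuclei inside were deeper than those outside at E12.5 (median 6875 against 2449 fragments) and E14.5 (7002 against 4138) but not at E16.5 (10367 against 10918.5). Levels in gates are given as fragments per 1000000 (FPM), with the gate loci left out of the total.

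At E14.5 and E16.5 FGF receptor loci were more open inside the chondrogenic gate. At E16.5 all 5 receptor loci were higher inside the gate by more than counting error, as 42.9% of genes were, with a median log2 ratio of 0.73 against 0.09 over 15347 genes. The median over receptors was 0.12 at E12.5 and 0.51 at E14.5. Of 34 members, 3 were 1.5-fold or more higher and 1 was lower at E16.5, beside 4.2% and 3.26% of genes, and 2 were higher and 0 lower at E14.5, beside 1.4% and 0.765%. At E12.5, 0 were higher and 2 were lower, Fgf6 (-0.87) on 11 fragments inside and Fgf21 (-0.61) on 34, beside 0.919% and 0.152% of the genes with at least 50 fragments inside.

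Fgfr4 had 21.7 FPM inside and 11.1 outside at E16.5 (log2 ratio 0.96, 0.78 to 1.13), and Fgfrl1 had 115 inside and 59.7 outside (0.95, 0.87 to 1.02). Fgfr2 had 251 inside and 152 outside (0.73, 0.68 to 0.78), and its ratio was 0.35 at E12.5 and 0.51 at E14.5. Fgfr3 had 58.8 inside and 42.9 outside (0.45, 0.35 to 0.56) and Fgfr1 had 147 inside and 127 outside (0.21, 0.15 to 0.28). At E12.5, 2 of 5 receptors had intervals above 0, Fgfr2 and Fgfrl1 (0.39, 0.16 to 0.61). Such intervals were found at E12.5 for 1263 of the 10558 genes with at least 50 fragments inside. Fgfr3 had 37.6 inside and 44.1 outside there (-0.23, -0.61 to 0.13, on 65 fragments inside), Fgfr4 had a ratio of 0.03 (-0.63 to 0.62, on 24) and Fgfr1 one of 0.12 (-0.05 to 0.28).

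Of 20 autosomal ligands, 5 had intervals above 0 and 10 below 0 in this gate at E16.5, beside 42.9% and 19.8% of genes, and Fgf10, Fgf7 and Fgf3 were the 3 lowest members. Fgf10 had 42.1 FPM inside and 70.4 outside at E16.5 (-0.74, -0.86 to -0.63), Fgf7 had 31.0 inside and 43.6 outside (-0.49, -0.64 to -0.36) and Fgf3 had 11.1 inside and 14.1 outside (-0.35, -0.59 to -0.11). Fgf10 had a ratio of -0.04 at E12.5 and -0.29 at E14.5. Feedback genes had a median of -0.02 at E16.5, and 0 of 9 passed 1.5-fold.

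**Figure D3:**
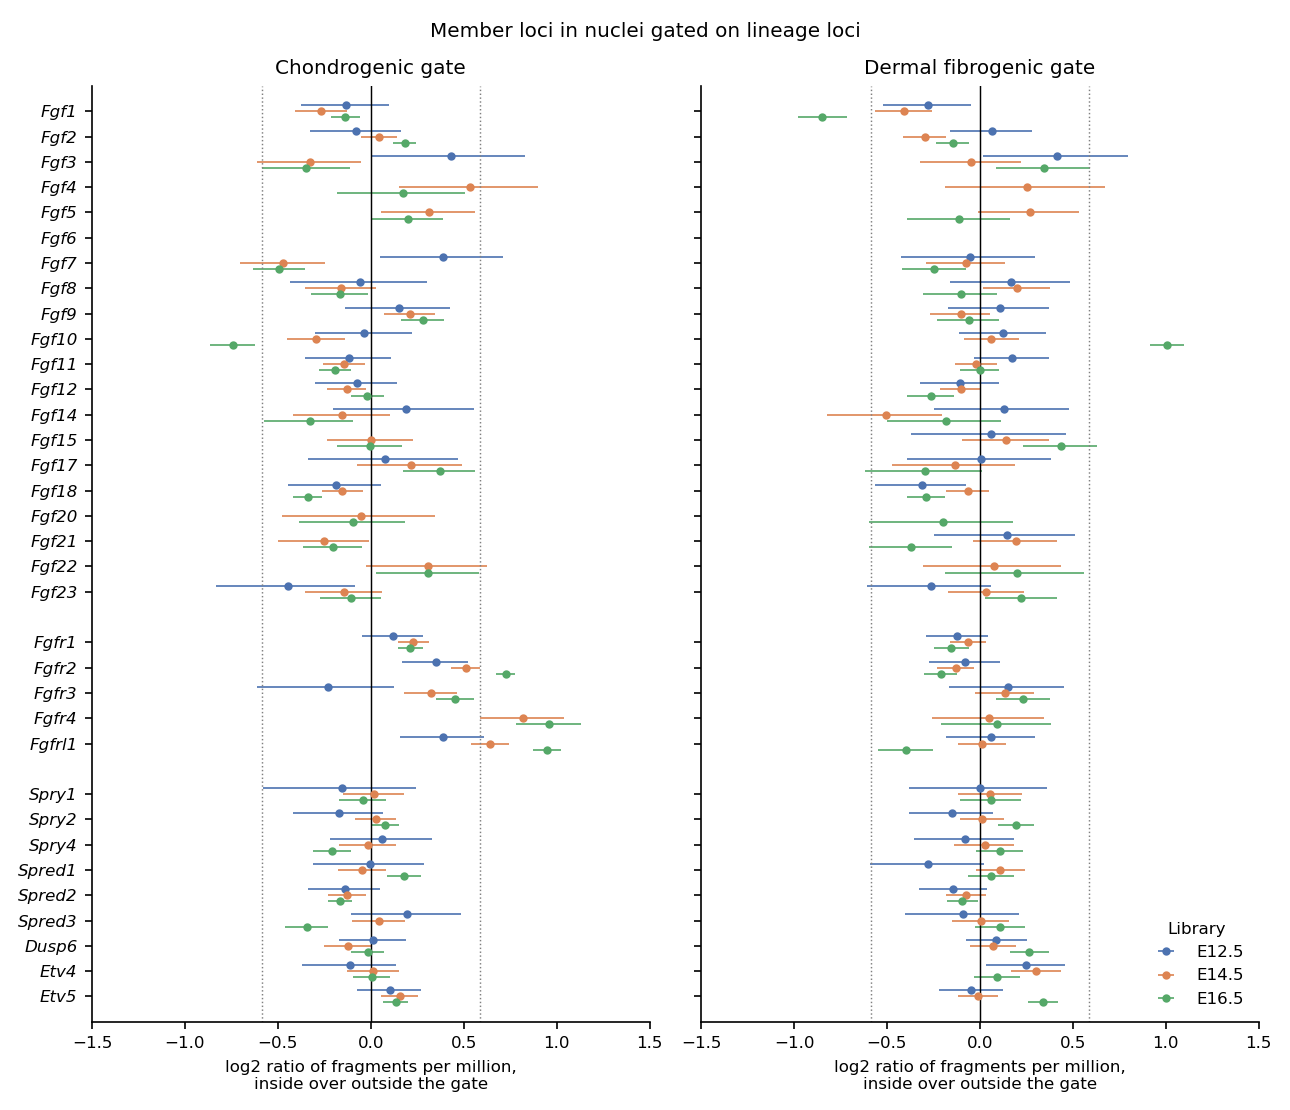
log2 ratio of FPM inside over outside the chondrogenic and dermal fibrogenic gates for each autosomal FGF locus with at least 50 fragments inside, with bars for the 95% counting interval and dotted lines at 1.5-fold. Receptors lie to the right in the chondrogenic gate (Fgfr4 0.96, Fgfrl1 0.95, Fgfr2 0.73 at E16.5), and Fgf10 lies to the left there (-0.74) and to the right in the dermal fibrogenic gate (1.01).

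As a fold, the receptor difference was largest in single intronic elements. The Fgfrl1 element that had fallen with stage had 20.2, 26.1 and 25.3 FPM inside the chondrogenic gate in order of stage, but 8.72, 3.93 and 1.52 outside it. Its level inside was not lower at E16.5 than at E12.5, while its level outside was. These levels were not scaled to its called width of 1221, 641 and 861 bp. Gated nuclei of the 3 libraries were not like groups, with check loci higher inside by log2 ratios of 0.20, 0.67 and 1.21. The gated share was 2.66%, 4.35% and 8.63%, and in which nuclei the element fell was not tested. At E16.5 the difference between inside and outside was 16.7-fold (log2 ratio 4.06, 3.82 to 4.30), above 99.9% of matched elements. Another Fgfrl1 intron peak at 3111 bp was 4.77-fold higher inside, whereas the Fgfrl1 promoter peak was 1.12-fold higher.

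At Fgfr2, 15 of 28 peaks of the E16.5 library had at least 50 fragments inside the gate, a limit that favours peaks high inside, so the counts are a description of these peaks only. Of these, 9 were 1.5-fold or more higher inside and 0 were lower, beside 22.8% and 19.7% of 69951 peaks. The peak with the largest fold, in an intron 42156 bp from the start site, had 4.63, 9.41 and 11.4 FPM inside and 2.24, 2.15 and 1.19 outside. It was 9.64-fold higher inside at E16.5 (3.27, 2.96 to 3.58). It rested on 8 fragments inside at E12.5, where its interval reached from -0.21 to 2.10. In FPM an Fgfr2 peak over an exon at 83418 bp differed more, with 56.5 inside and 8.39 outside at E16.5 (6.73-fold). The Fgfr2 promoter peak differed by 1.32-fold and 4 Fgfr1 peaks and 2 Fgfr3 peaks by less than 1.5-fold. These peaks were singled out after the gate values were seen. The centre of the intronic Fgfr2 peak, chr7:130224489-130224788 (-), is shown because it had the largest fold at that locus, with a TCF/LEF motif in capitals.
Fgfr2 chondrogenic gate peak: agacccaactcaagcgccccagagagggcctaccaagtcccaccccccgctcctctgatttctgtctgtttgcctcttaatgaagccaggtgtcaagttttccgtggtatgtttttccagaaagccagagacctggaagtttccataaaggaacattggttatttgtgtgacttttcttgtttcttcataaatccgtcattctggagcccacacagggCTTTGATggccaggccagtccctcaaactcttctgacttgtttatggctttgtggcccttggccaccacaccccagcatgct

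The elements that rose with stage in Fgf1, Fgf18 and Fgf7 were less open inside the chondrogenic gate. At E16.5 the Fgf1 element had 18.2 FPM inside and 38.9 outside (-1.09, -1.28 to -0.91), and the Fgf18 element had 7.52 inside and 16.5 outside (-1.14, -1.43 to -0.86). The Fgf7 element had 7.38 inside and 16.6 outside (-1.17, -1.47 to -0.89). The falling Fgfr1 element differed little between gated and other nuclei, with 17.5 inside and 18.8 outside at E16.5 (-0.10, -0.29 to 0.08). It had fallen on both sides of the gate, from 56.1 inside and 49.8 outside at E12.5.

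**Figure D4:**
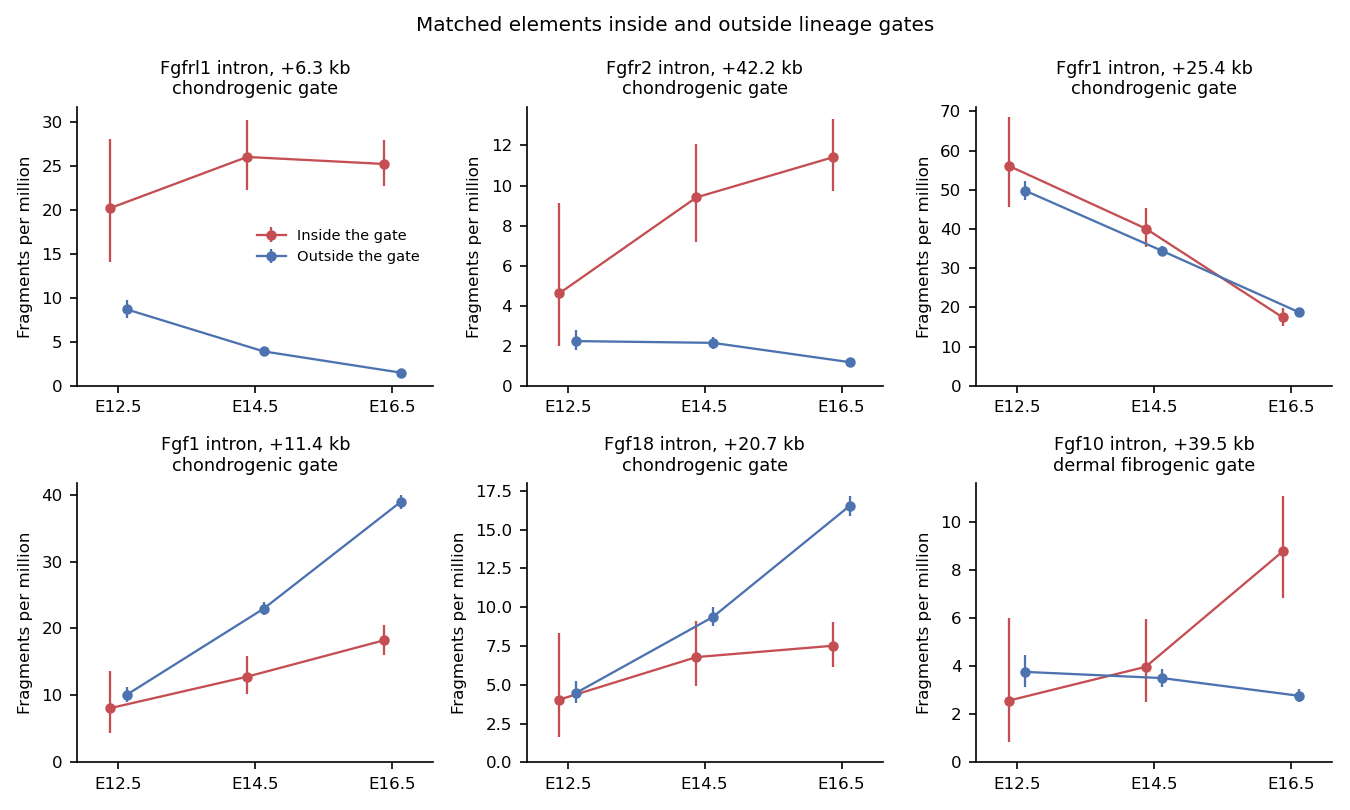
Fragments per 1000000 (FPM) in 6 matched elements inside (red) and outside (blue) a lineage gate by stage, with bars for the 95% counting interval. The Fgfrl1 element had 20.2, 26.1 and 25.3 inside the gate and 8.72, 3.93 and 1.52 outside, and the Fgf10 element was higher inside the dermal fibrogenic gate at E16.5 (8.79 against 2.77).

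The dermal fibrogenic gate, on 8 loci such as Twist2, Crabp1 and Irx1, held 246, 820 and 659 nuclei (2.97%, 4.10% and 4.69%). In each library 2 of its 3 check loci (Lef1, Axin2, Dkk2) were higher inside. The summed level of the check loci was higher inside by log2 ratios of 0.24, 0.21 and 0.39. Near the limit, by the margin used for the chondrogenic gate, lay 101, 370 and 527 nuclei. Nuclei inside were deeper than those outside. Their median fragments were 6102 against 2434.5 at E12.5, 6557 against 4149 at E14.5 and 11413 against 10798 at E16.5. A gate at 3 times the predicted fragments held 83 nuclei at E16.5. Fgf10 was the FGF locus that differed most. It had 82.9, 68.7 and 130 FPM inside and 76.0, 65.9 and 64.9 outside, with log2 ratios of 0.12 (-0.11 to 0.35), 0.06 (-0.09 to 0.21) and 1.01 (0.91 to 1.1). The difference was thus beyond counting error in the E16.5 library and not in the others. Gated nuclei of the libraries were not like groups in depth or check level, and the change between libraries was not tested. Fgf15 (0.44) and Fgf3 (0.34) came next at E16.5, and Fgf1 (-0.85, -0.98 to -0.72), Fgfrl1 (-0.40) and Fgf21 (-0.37) were the lowest. In all, 1 of 34 members was 1.5-fold or more higher and 1 was lower, beside 2.79% and 2.91% of genes.

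At E16.5, 6 of 12 Fgf10 peaks had at least 50 fragments inside, which again favours peaks high inside. These 6 were 1.5-fold or more higher inside the dermal fibrogenic gate, with log2 ratios from 0.72 at the promoter to 2.14, beside 32.9% of 48477 peaks that were higher and 8.73% that were lower. The intron peak at 39500 bp was matched in all 3 libraries, and had 2.57, 3.98 and 8.79 FPM inside and 3.77, 3.51 and 2.77 outside. Its centre, chr13:118754049-118754348 (+), is shown as the intronic sequence of Fgf10 with the largest fold among matched elements. In FPM the intron peak at 17443 bp differed more, with 22.8 inside and 10.3 outside at E16.5. The capitals in the printed sequence mark a SOX motif.
Fgf10 dermal fibrogenic gate peak: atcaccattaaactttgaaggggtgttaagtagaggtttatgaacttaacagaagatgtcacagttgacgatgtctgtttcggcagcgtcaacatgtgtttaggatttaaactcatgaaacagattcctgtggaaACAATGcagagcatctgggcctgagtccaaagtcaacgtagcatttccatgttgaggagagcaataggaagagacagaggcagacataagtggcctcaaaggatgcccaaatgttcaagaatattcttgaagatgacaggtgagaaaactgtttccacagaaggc

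Tenogenic and fibrogenic gates could be read at E16.5 only, because their check loci were not higher inside beyond counting error at the earlier stages. By the margin used for the other gates, 517 nuclei lay near the limit of the tenogenic gate and 535 near that of the fibrogenic gate at E16.5. In 616 tenogenic nuclei the lowest FGF loci were Fgf14 (-0.66), Fgf10 (-0.52, -0.68 to -0.36) and Fgf7 (-0.26), and the highest were Fgf22 (0.29), Fgf8 (0.23) and Fgf1 (0.20). In the 578 nuclei of the fibrogenic gate, whose check loci were higher by a log2 ratio of 0.17 (0.01 with a stricter gate of 3 times the predicted fragments), the highest were Fgf1 (0.25), Fgf18 (0.23) and Fgf7 (0.23) and the lowest Fgf17 (-0.48), Fgfr4 (-0.26) and Fgfrl1 (-0.23). Receptors had a median of 0.06 inside the tenogenic gate and -0.14 inside the fibrogenic gate, beside 0.73 inside the chondrogenic gate of the same library.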

How the data were processed

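The deposited files gave, for each library, a matrix of counts per peak and nucleus, the barcodes and a peak list. Per the labels the authors used Cell Ranger ATAC 1.1.0 and mm10, whereas the file headers name 1.0.1 (E12.5, E14.5) and 1.2.0 (E16.5). Peaks were called in each library separately. Counts are transposase cut sites, and intervals were computed on pairs of cut sites (fragments), exact Poisson for levels and conditional binomial for ratios, at 95%. Peaks that overlapped by 1 bp or more were merged into 266531 regions, of which 84660 held a peak of every library. Gene bodies came from RefSeq, and start sites from its curated transcripts where a gene has any. A promoter covered the 1000 bp before a start site and the 100 bp after it. All 42365 deposited barcodes were kept, since the files mark none as left out by the study. No doublet caller was run, and the deepest 5% of nuclei were left out as an alternative. Calling elements required at least 50 fragments in 1 library. Calculations used numpy 2.4.6, pandas 2.3.3 and scipy 1.17.1, and were tested on simulated data.

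Named in full were all receptors and feedback genes, Fgf2, Fgf7, Fgf9, Fgf10, Fgf18 and the ligands with the largest rise and fall. For elements, the largest rise and fall per group and promoters of named genes were given, and for gates the 3 highest and 3 lowest members at E16.5. Members and lists were chosen with earlier results of these data known.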

Additional observations from a re-analysis of the deposited data

Results flagged for a closer look

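Fgf3 and Fgf7 were more open inside than outside the chondrogenic gate at E12.5 and less open at E14.5 and E16.5. The log2 ratios of Fgf3 were 0.43, -0.33 and -0.35, and those of Fgf7 were 0.39, -0.47 and -0.49. The difference between stages was not tested, since each stage is 1 library. At E12.5 the values rested on 54 fragments inside the gate for Fgf3 and 82 for Fgf7, with intervals of 0.01 to 0.83 and 0.05 to 0.71, and gated nuclei there were deeper than the others (median 6875 against 2449 fragments).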

How the results depend on the processing

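No paired analysis was possible because each stage has 1 library. Over 14 alternatives, group medians and counts stayed within their interval or within 1.5 times the count in 41 cases, moved in 16 and changed sign beyond their interval in 2. The ligand median from E12.5 to E16.5 was below 0 under every alternative (-0.46 to -0.16), with -0.28 in matched elements, -0.16 in peaks outside promoters and -0.29 in a binarised matrix. The receptor median changed sign, to 0.069 outside promoters and 0.028 without the deepest nuclei. The feedback median, whose interval included 0, was below 0 in 4 of those that moved, with -0.043 in matched elements, -0.24 per kb, -0.094 outside promoters, -0.014 binarised, and it was 0.15 without the deepest nuclei. Members 1.5-fold higher numbered 0 per kb, 0 in promoter peaks, 3 outside promoters and 0 at 2-fold (2.81% of genes), against 1. Those lower numbered 3 outside promoters and 3 at 2-fold (3.06%), against 7. At 80% reciprocal overlap, 1 element of 20 was higher and 6 were lower (5.27% and 16.6% of all), against 5 and 15 of 62, with fewer elements left to count. Of 1028 alternatives of single ratios 112 had the opposite sign, 7 of them for ratios past 1.5-fold: per kb, Fgf2 from E12.5 to E16.5 (-0.055) and Fgf17 (0.51), Fgf20 (0.43) and Dusp6 (0.25) from E12.5 to E14.5; in promoter peaks, Fgf9 (0.38) and Fgf14 (0.74) from E14.5 to E16.5; and with GENCODE gene models, an alternative added after seeing the data, Fgf20 (0.21) from E12.5 to E14.5. Apart from the count of elements, the cause was not tested. Per kb, the median of all genes was 0.50 from E12.5 to E14.5, -0.68 from E14.5 to E16.5 and -0.19 from E12.5 to E16.5. With a gate at 3 times the predicted fragments, the E16.5 chondrogenic ratios were 1.06 at Fgfr4, 1.27 at Fgfrl1, 0.89 at Fgfr2 and -1.06 at Fgf10, and Fgf1 changed sign in the tenogenic gate (-0.14).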
